A study of Schizosaccharomyces pombe with 2 samples.

Results

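The 10 kb bins that flank the 3 centromeres of fission yeast (Schizosaccharomyces pombe) were described for their contact with the other centromeres, across their own centromere and with chromosome ends. A bin was taken as flanking when its middle lay within 400 kb of the centromere midpoint on chromosomes I and II, or within 200 kb on chromosome III, and when it had values. Of 200 bins within these limits, 186 had values, 76 on I, 76 on II and 34 on III, out of 1218 bins with values in the map. The other 1032 bins are the rest of the map. The midpoints lie in bins 3770001 of I, 1620001 of II and 1100001 of III, with bins named here by their start on ASM294v2.

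The contacts were measured by Hi-C, in which fixed chromatin is cut and ligated again so that sequenced ligation products count which loci lay close together. The cells carried sap1-1, a mutant allele of sap1, which encodes an essential DNA-binding protein, and grew in rich medium at 26 °C before 6 h at 33 °C. They were fixed with 3% formaldehyde for 20 min, and the chromatin was cut with HindIII. The series has 2 samples of this 1 group and no control strain, so strains are not compared below. All values come from 1 map, whose header has a tag for replicate 1. Whether it pools both replicates is not stated, so there was no replicate error and no test between groups. Each interval below is a 95% Poisson interval on the reads behind a value. It covers counting error only, although corrected reads do not all weigh the same.

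Fission yeast centromeres consist of a central core that carries the kinetochore, between repeats that are packed as heterochromatin and bordered at many places by tRNA genes. Through much of the cell cycle the centromeres are held together beside the spindle pole body at the nuclear envelope. The telomeres gather at other places of the envelope, so that chromosome arms run away from the centromere cluster.

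Contacts are formed by ligation at HindIII cut sites, and the sites nearest the midpoints are shown because copies of their flanking bases elsewhere in the genome leave the place of a read uncertain. Each line gives the site in capitals with 30 bases on either side, on the plus strand, read from the RefSeq reference whose chromosome lengths equal those of the map. For each centromere it is the site nearest the midpoint on each side that lies in a bin with values, the short-arm side first.
I right, chrI:3790856-3790921: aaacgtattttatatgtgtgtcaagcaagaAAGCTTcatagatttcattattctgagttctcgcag
I left, chrI:3758047-3758112: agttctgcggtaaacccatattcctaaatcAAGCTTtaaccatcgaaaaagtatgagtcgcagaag
II left, chrII:1599374-1599439: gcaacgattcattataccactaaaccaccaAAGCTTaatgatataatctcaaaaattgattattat
II right, chrII:1625041-1625106: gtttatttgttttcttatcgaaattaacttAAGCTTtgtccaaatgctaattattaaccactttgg
III left, chrIII:1069679-1069744: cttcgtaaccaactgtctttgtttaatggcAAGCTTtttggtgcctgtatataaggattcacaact
III right, chrIII:1131821-1131886: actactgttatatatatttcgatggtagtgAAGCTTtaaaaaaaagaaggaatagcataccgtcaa

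The site on the right of I, the site on the right of II and the site on the left of III had flanks that occur 1 time each in the genome. The site on the left of I had 4 copies of both flanks, and the site on the right of III had 10 copies of both. The site on the left of II had 8 copies of its left flank and 2 of its right flank, and it overlaps the glycine tRNA gene SPBTRNAGLY.07. The sites on the right of I, on the left of III and on the right of III overlap noncoding RNA genes, and the other two overlap no annotated gene.

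The innermost sequence itself is missing from the map. Of the 14 blank bins within the limits, 4 lay at centromere I, 4 at II and 6 at III, and 12 of them lay within 50 kb of a midpoint. The median share of their 30-base sequences that occur again in the genome was 93.3% at I, 93.4% at II and 99.3% at III. It was 0.0201%, 0% and 0% in the flanking bins with values at I, II and III. The nearest bin with values lay 23.7 kb from the midpoint on the short-arm side of I and 16.3 kb on its long-arm side. At II the distances were 27.5 kb on the short-arm side and 2.51 kb on the long-arm side, and at III they were 38.5 kb and 31.5 kb. The short arms are the right arm of I (1808 kb) and the left arms of II (1622 kb) and III (1104 kb), against long arms of 3771 kb, 2917 kb and 1349 kb.

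Flanking bins held 7686 to 85939 recovered reads (median 55002.5), against a median of 59221 in the rest of the map. Of the flanking bins, 16 shared 5% or more of their 30-base sequences with other places in the genome, and 12 shared that much with another chromosome. The lowest reads of the whole map, 7686, were in bin 1620001 of II, the only bin with values inside the gap of II. Within-bin contact made up 58.5% of the corrected signal of that bin. Some values of II were also computed without it and are given both ways below. Contact of II with its own left end and the share of contact kept on II were computed only with it.

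Contact with the other centromeres was high beside the midpoints and fell steeply with distance on all 6 sides. It was measured as the mean corrected contact with bins within 50 kb of the midpoints of the other 2 centromeres, divided by the inter-chromosomal mean of arm bins (a corrected value of 12.5 over 1068 bins, 138 of which are flanking bins). This fold was 22.5 ± 2.64 at 0 to 50 kb, 11.004 ± 2.03 at 50 to 100 kb and 4.26 ± 0.989 at 100 to 200 kb (SD over 3 centromeres). The same pairs of bins enter the innermost value of both centromeres of a pair, so the 3 centromeres are not independent. The outer classes exist on I and II alone. At 200 to 300 kb the fold was 1.78 on I and 1.56 on II, and at 300 to 400 kb it was 1.30 on I and 1.14 on II.

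The level stayed above the rest of the map to the outer limit. The median fold over all flanking bins was 2.99 (0.640 to 33.0), against 0.518 in the rest (0.192 to 9.87). Among the 79 flanking bins at 200 kb or more the median was 1.41. A fold of 2 or more was found in 114 of 186 flanking bins, or 61.3%, where 12.4% of all 1218 bins reached it. Bins within 50 kb are themselves the windows that other centromeres are measured against, so their high fold is partly set by the choice of bins near centromeres. The same fold computed from reads without the correction was lower, at 13.0 for 0 to 50 kb, and windows of 100 kb gave 15.5.

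Just inside and outside the limits the values ran on without a step. On the short-arm side of I the outermost flanking bin, with dia4, had a fold of 0.921 and the next bin out 0.971. On its long-arm side they were 1.57 at alp31 and 1.13 at the retrotransposon Tf2-4. On the short-arm side of II they were 0.764 at tsp0 and 0.781 at ppk31, and on its long-arm side 1.28 at psf1 and 1.33 at frg1. On III they were 2.69 at mcm4 and 2.70 at sfh1 on the short-arm side, and 3.90 at lap2 and 3.86 at srk1 on the long-arm side. Centromere III thus still stood well above the mean at its narrower limit.

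**Figure D1:**
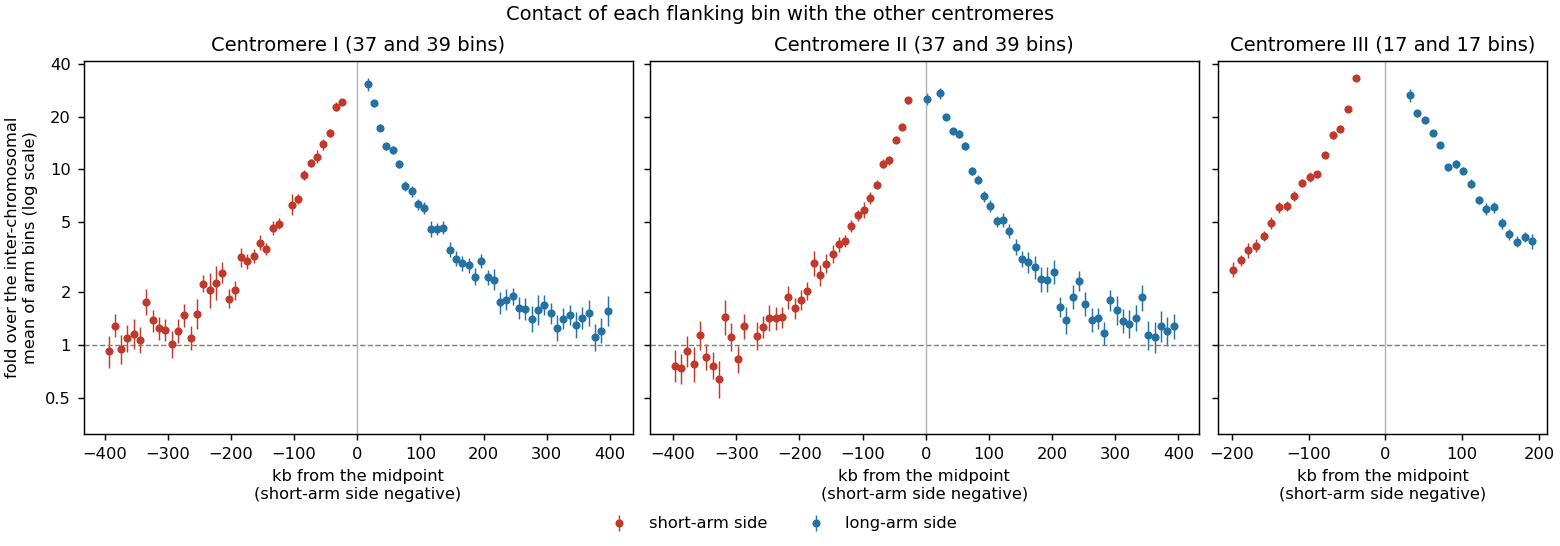
Contact of each flanking bin with the other centromeres, as fold over the inter-chromosomal mean of arm bins on a log axis, against distance from the bin's own midpoint in kb, with the short-arm side negative. Points are bins, bars are 95% Poisson intervals and the dashed line is a fold of 1; on all 6 sides the points fall steeply to about 200 kb, and on the short-arm side of II 8 bins lie under 1.

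In the corrected map the steep part had nearly the same slope on each side. From 50 to 200 kb the log2 fold changed by -1.79 ± 0.13 per 100 kb (SD over 6 sides), from -1.97 on the long-arm side of II to -1.61 on the long-arm side of I. At the mean slope the fold drops to 0.288 of its level over 100 kb. In reads without the correction the mean slope was -1.73, but the sides were less alike. There 1 SD over the sides spanned -2.24 to -1.23, against -1.92 to -1.67 in the corrected map. From 200 to 400 kb the slopes were shallower, at -0.58 on the short-arm side and -0.38 on the long-arm side of I. On II they were -0.61 on the short-arm side and -0.37 on the long-arm side. Their standard errors, over bins of 1 map, ran from 0.07 to 0.11.

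The distance at which the level was reached differed by centromere. The first bin outward under a fold of 5 lay 124 kb from the midpoint on the short-arm side of I and 116 kb on its long-arm side. On II it lay at 117 kb and 133 kb, and on III at 149 kb and 151 kb. A fold under 2 came first at 204 kb and 226 kb on I and at 197 kb and 213 kb on II, and in 0 of the 34 bins of III. A fold under 1 came first at 297 kb on the short-arm side of II, where 8 of 37 bins were under 1, and at 374 kb on the short-arm side of I, where 2 of 37 were. The long-arm sides of I and II had 0 of 39 bins each under 1.

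The innermost bins carry genes that border the heterochromatin. On the short-arm side of I, bin 3790001 holds rad50, for a subunit of the DNA break repair complex, and sdh1, for a subunit of succinate dehydrogenase, and its fold was 24.3 (interval 23.3 to 25.3, 2232 reads). The next bin, with meu1 and pmm1, had 22.8. On the long-arm side of I, bin 3750001 with per1 had 30.5 (28.0 to 33.1, 552 reads), and bin 3740001 with rpl1002, a ribosomal protein gene, and lys1, a lysine biosynthesis gene often used as a centromere marker, had 23.8. The per1 bin shares 62.1% of its 30-base sequences with another chromosome.

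On II, bin 1590001 on the short-arm side holds rpb1, for the largest subunit of RNA polymerase II, and hmo1, and its fold was 24.7 (1597 reads). The next bin, with toa1, for a subunit of the general transcription factor TFIIA, and hrd3, had 17.5. On the long-arm side, bin 1620001 had 25.3 from 626 reads, and bin 1640001, with the transcription regulator gene yox1 and the meiotic recombination gene rec6, had 27.1 from 788 reads. The sequence of bin 1640001 is shared with another chromosome over 38.6%.

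On III, bin 1060001 on the short-arm side, with meu27 and the checkpoint kinase gene chk1, had the highest fold of all flanking bins, 33.0 (interval 32.0 to 34.0, 4289 reads), and shares 8.84% of its sequence with another chromosome. The next bin, with gyp2 and pgp1, had 21.9. On the long-arm side, bin 1130001, with 10006 reads and 80.1% shared with another chromosome, had 26.4, and the next bin, with cmc2 and cbp3, had 20.9. Without bins sharing 5% or more with another chromosome the fold at 0 to 50 kb was 18.0, against 22.5 with them. How far reads placed at the wrong copy add to the innermost values was not tested further.

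Centromere III was the partner met most by the innermost bins of I and II. Bins within 50 kb of I met centromere III at 26.0 (25.3 to 26.8) and centromere II at 18.4 (18.0 to 18.9). Bins within 50 kb of II met centromere III at 25.1 (24.4 to 25.8). The order turned for the outer bins of I. At 200 to 300 kb they met centromere II at 1.89 (1.82 to 1.964) and centromere III at 1.57 (1.48 to 1.67). The bins of II kept III in front at that distance, with 1.73 (1.64 to 1.83) for centromere III and 1.47 (1.41 to 1.53) for centromere I. The window of III holds only 4 bins with values, against 7 each for I and II. Bin 1130001 of III shares 80.1% of its sequence with another chromosome, and bin 1060001 shares 8.84%. The highest such shares in the windows of I and II are 62.1% and 38.6%. How far shared sequence sets the order of partners was not tested.

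Flanking bins of I and II at 200 kb or more met the flanks of another chromosome, at 50 to 200 kb from its midpoint, more than the bins within 50 kb of it. Bins at 300 to 400 kb from I met bins of II at 1.38 within 50 kb of its midpoint, 1.75 at 50 to 100 kb, 1.95 at 100 to 200 kb, 1.78 at 200 to 300 kb and 1.62 at 300 to 400 kb. Bins at 200 to 300 kb from II met bins of III at 1.73 within 50 kb, 2.24 at 50 to 100 kb and 2.78 at 100 to 200 kb. In both series the interval of the innermost value (1.32 to 1.44 and 1.64 to 1.83) lies below that of the value at 100 to 200 kb (1.91 to 1.99 and 2.73 to 2.83). Bins at 100 to 200 kb from I met bins of II at 3.89, 4.33, 3.43, 2.18 and 1.63 over the 5 classes from the midpoint of II outward, so that only the class at 50 to 100 kb stood above the innermost. Bins at 100 to 200 kb from III met bins of II at 6.01 within 50 kb, 6.09 at 50 to 100 kb, 4.56 at 100 to 200 kb, 2.78 at 200 to 300 kb and 1.999 at 300 to 400 kb. Bins within 50 kb of I met bins of II at 18.4, 8.67, 3.27, 1.47 and 1.05 over the same 5 classes.

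The short-arm and long-arm sides of a centromere differed, and not in the same direction on the 3 chromosomes. On I the short-arm side was higher near the midpoint: over 20 to 100 kb its mean fold was 14.5, against 12.5 on the long-arm side, a ratio of 1.16 (1.13 to 1.19), and it was higher in 8 of 8 distance steps of 10 kb. From 100 to 200 kb the ratio was 1.05 (1.002 to 1.09), and from 200 to 400 kb it was 0.918 (0.876 to 0.963), with the short-arm side higher in 7 of 20 steps. Over all steps to 400 kb the ratio of I was 1.09, and it turned to 0.848 in reads without the correction.

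On II the short-arm side was lower at each range. Its mean fold over 20 to 100 kb was 12.5, against 14.8 on the long-arm side, a ratio of 0.842 (0.820 to 0.864), with 0 of 8 steps higher. The ratio was 0.877 (0.838 to 0.917) from 100 to 200 kb and 0.727 (0.689 to 0.767) from 200 to 400 kb, where 4 of 19 steps were higher. Over all steps to 400 kb the ratio of II was 0.831, and 0.664 to 0.915 under the alternatives. On III the ratio was 1.01 from 20 to 100 kb, and its interval (0.986 to 1.03) covered 1. The short-arm side was higher in 2 of 7 steps, the innermost ones, at 33.0 against 26.4 and 21.9 against 20.9. The bins of the first of these share 8.84% and 80.1% of their sequence with another chromosome. The ratio from 20 to 100 kb was not computed without them. From 100 to 200 kb the short-arm side was lower, with 4.98 against 5.81, a ratio of 0.858 (0.832 to 0.884), and higher in 1 of 10 steps. Over all steps of III the ratio was 0.958, and 0.936 without bins sharing 5% or more of their sequence with another chromosome. It turned to 1.01 with centromere windows of 100 kb. The steps of 1 side are neighbouring bins of 1 map and are not replicates.

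Sides of different chromosomes were then set against each other at matched distance from their midpoints (within 20 kb of each other, 50 kb or more out). In the main setting sides alike did not meet clearly more than unlike sides in any pair of chromosomes. Pairs of sides alike, short with short and long with long, averaged 2.98 between I and II, against 3.14 for unlike sides, a ratio of 0.947 (0.920 to 0.974). The ratio was 1.03 (0.998 to 1.07) between I and III and 0.999 (0.970 to 1.03) between II and III. Between I and III it depended on the setting. It was 1.06 (1.03 to 1.10) without the 5% of bins lowest in reads and 1.07 (1.04 to 1.11) in reads without the correction. Balanced again without the diagonal it was 1.03, and with distances matched within 50 kb it was 1.01, and both intervals covered 1.

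Single combinations differed more than these averages. The short-arm sides of II and III met at 7.68 (7.46 to 7.90), and the long-arm sides of the same chromosomes at 5.16 (5.002 to 5.33). The mixed combinations of II and III lay between, at 6.35 for short with long and 6.50 for long with short. Contact of II with III thus fell from short with short to long with long. The ratio of sides alike to unlike averages the highest with the lowest combination, so it cannot show this order. Between I and II the long-arm side of II was the closer partner for both sides of I. The short-arm side of I met it at 3.38, against 2.66 for the short-arm side of II, and the long-arm side of I met it at 3.29, against 2.91. The 4 combinations of I and III lay within 5.4 to 5.79.

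**Figure D2:**
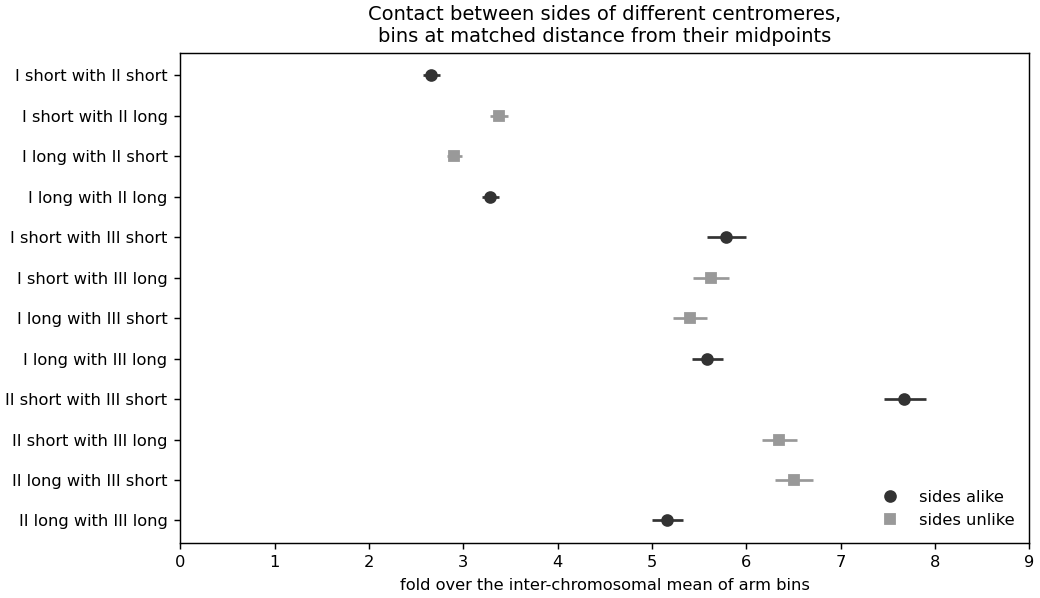
Contact between the sides of different centromeres at matched distance from their midpoints, as fold over the inter-chromosomal mean of arm bins. Points are means over bin pairs and bars are 95% Poisson intervals, often narrower than the point; circles are sides alike and squares sides unlike, and the short-arm sides of II and III stand highest at 7.68.

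Contact across the centromere differed between II and the other two. It was measured for pairs of flanking bins on opposite sides of 1 centromere and divided by the contact of arm bins on 1 side of the same chromosome at the same separation. At separations of 10 to 100 kb the ratio was 1.28 (1.25 to 1.30, 28 pairs) across I and 1.23 (1.19 to 1.27, 10 pairs) across III, but 0.458 (0.446 to 0.469, 29 pairs) across II. This class does not cover the same separations on each centromere, because blank bins lie between the sides. The nearest bins with values lay 16.3 and 23.7 kb from the midpoint on I, 2.51 and 27.5 kb on II, and 31.5 and 38.5 kb on III. At 110 to 200 kb the ratios were 1.06 across I, 0.745 across II and 1.08 across III. At 210 to 400 kb they were 0.980, 0.820 and 1.14 in the same order. At 410 to 800 kb the ratio was 1.18 across I and 0.893 across II.

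These ratios depended on the correction. In recovered reads without it, the ratio at 10 to 100 kb was 0.692 across I, 0.326 across II and 0.709 across III, so that II stayed lowest and the ratios of I and III turned below 1. Without flanking bins that hold repeated sequence, bin 1620001 among them, it was 1.20 across I, 0.674 across II and 1.19 across III. Without bin 1620001 alone it was 0.630 (0.614 to 0.647, 21 pairs) across II at 10 to 100 kb, 0.791 at 110 to 200 kb and 0.842 at 210 to 400 kb. Both settings were chosen after the values of the bin were seen.

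Mirrored bins, at the same distance on both sides of a centromere, met more often than bins at that distance on different chromosomes. At 0 to 50 kb the mirrored pairs of I had a fold of 77.6, of II 35.1 and of III 70.1, where pairs on different chromosomes at the same steps had 19.1, 19.4 and 21.5. The ratios were 4.07 on I, 1.81 on II and 3.26 on III. At 50 to 100 kb they were 2.89, 1.79 and 2.23, and at 100 to 200 kb they were 2.32, 1.62 and 2.03 in that order. At 300 to 400 kb the ratio was 2.24 on I and 1.58 on II. Opposite sides of 1 centromere met each other more than they met other chromosomes at each distance measured, by the least on II.

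**Figure D3:**
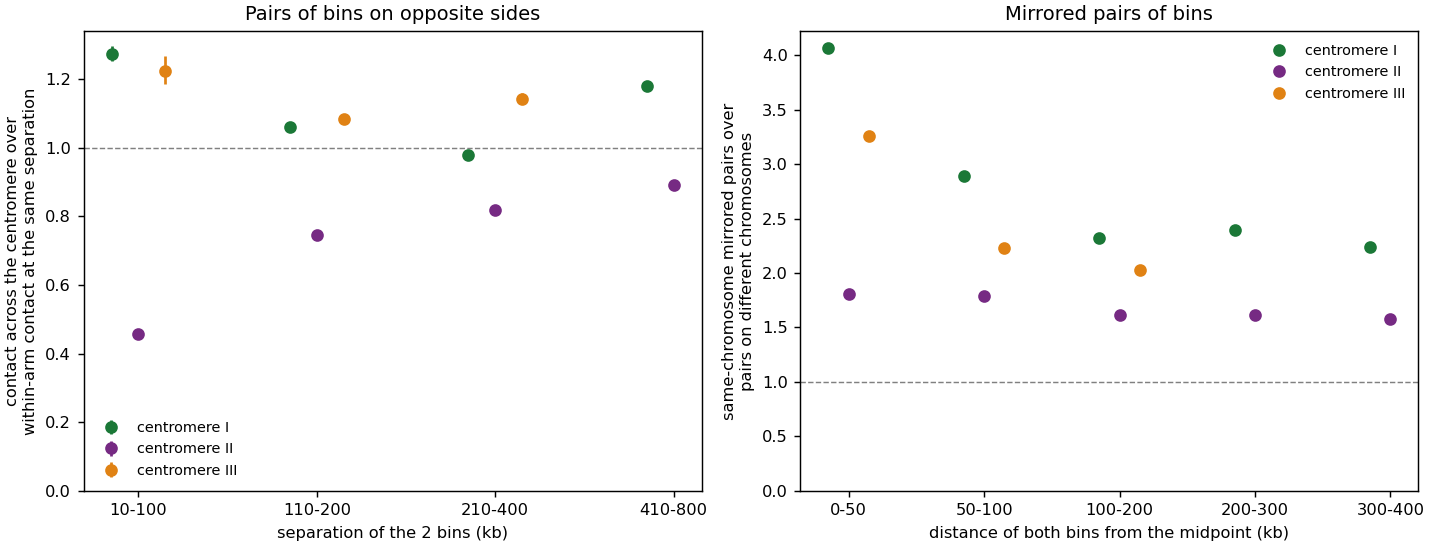
Left, contact of bin pairs on opposite sides of a centromere over within-arm contact at the same separation, by separation in kb, with 95% Poisson intervals that are mostly smaller than the points. Right, contact of mirrored pairs on 1 chromosome over pairs on different chromosomes at the same distance from the midpoint, with no interval drawn; centromere II lies lowest in each class of both panels.

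Contact along 1 side was raised near the midpoint. For pairs 10 to 100 kb apart, both within 100 kb of the midpoint, it was 1.21 ± 0.0646 times that of arm bins at the same separations (SD over 6 sides). It ran from 1.14 on the short-arm side of II to 1.33 on the long-arm side of III. From 100 to 200 kb the mean was 1.01 ± 0.0678, and from 200 to 400 kb it was 1.02 ± 0.0227 over the 4 sides of I and II. On the long-arm side of II it was 1.18 (1.17 to 1.18) with bin 1620001 and 1.25 (1.24 to 1.26) without it. In reads without the correction the innermost mean was 1.01.

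The mean share of contact kept on the own chromosome was lowest beside the midpoints. On I it averaged 74.8% within 50 kb and 82.5% at 300 to 400 kb, against 84.8% in the rest of I. On II it was 68.0% within 50 kb and 79.5% at 300 to 400 kb, against 81.6% in the rest. On III it was 68.7% within 50 kb and 73.7% at 100 to 200 kb, against 77.9% in the rest. The mean of II within 50 kb holds bin 1620001 and was not computed without it. The lowest single bin within 50 kb had 72.6% on I, 52.0% on II and 62.4% on III. Single bins of the rest went down to 67.2% on I, 67.0% on II and 72.3% on III, so on I the rest held lower bins.

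Contact with chromosome ends was low on most of the flanks. It was measured with the outermost 5 bins with values at each end of I and II that lies on another chromosome. The median fold over the flanking bins was 0.519 (0.141 to 4.02), against 0.757 in the rest of the map. A fold of 2 or more was found in 9 of 186 flanking bins, or 4.84%, where 11.2% of all bins reached it. All 9 lay within 100 kb of a midpoint. Of the 138 flanking bins beyond 100 kb, 0 reached a fold of 1, with a median of 0.459 and a highest value of 0.958. The bins outside the limits include the ends themselves, which meet each other. Among the 930 arm bins outside the limits the median was 0.728, and 6.56% reached a fold of 2, nearer to the share of the flanking bins.

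The sides of centromere I differed most in contact with ends. Bins of I are set against the ends of II, bins of II against those of I and bins of III against both, so levels are compared between the sides of 1 centromere only. From 20 to 100 kb its mean fold with the ends of II was 2.501, against 0.924 on the long-arm side, a ratio of 2.71 (2.45 to 2.99) from 1190 and 605 reads, and it was higher in 8 of 8 steps. The same ratio was 0.934 (0.836 to 1.04) on II, with 3 of 8 steps higher, and 0.814 (0.755 to 0.878) on III, with 1 of 7 steps higher. Leaving out the 5% of bins lowest in reads gave a ratio of 2.26 on I, and in reads without the correction it was 1.97. It stayed above 1 in all 7 alternatives tried. Among these, leaving out the bin of II with the fewest reads removes no bin of this ratio, which stayed at 2.71 there.

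Contact of the short-arm side of I with the ends of II formed a plateau with a sharp outer edge rather than a slope. In the 6 bins from 3790001 to 3840001 the fold with the ends of II was 2.61, 2.57, 2.60, 2.95, 4.02 and 2.59 going outward. It was 1.47 (117 reads) in the next bin, 3850001, 1.19 in bin 3860001 and 0.958 in bin 3870001. Plateau bins 3800001, 3820001 and 3830001 are among the 5% of bins lowest in reads. The shape of the plateau was not examined under alternatives. Over the same 6 plateau bins the contact with other centromeres fell steadily, from 24.3 in the innermost bin to 10.9 in the outermost. The highest bin, 3830001, holds srs2, for a DNA helicase, and rdl2, and had 20553 reads, 117 of them with these ends. The last plateau bin holds the pyruvate kinase gene pyk1 and ppc89, for a scaffold protein of the spindle pole body, and the bin beyond it holds rng8 and pta1. These genes of the plateau were named after the values were seen.

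The left end of II took most of this contact. The plateau bins met it at 3.90 to 5.58 each. Together they met its outermost 5 bins at 4.44 (4.12 to 4.78), against 1.36 (1.22 to 1.52) for the long-arm side of I at the same distances. These 6 bins were picked for their level. Over all bins within 100 kb the short-arm side met the left end of II at 3.84 (3.59 to 4.11), against 1.32 (1.20 to 1.46) on the long-arm side. In reads without the correction these were 1.73 (1.62 to 1.85) and 0.713 (0.645 to 0.786). The plateau bins met the right end of II at 1.34 (1.18 to 1.51), against 0.572 (0.489 to 0.666) on the long-arm side. Each of the 5 bins of the left end of II contributed, with folds of 4.97, 4.66, 4.68, 4.29 and 3.61 from the outermost inward. Further in from that end the contact of the plateau bins was 3.34 for bins 6 to 10, 1.79 for bins 11 to 20, 0.709 for bins 21 to 40 and 0.513 for bins 41 to 60.

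The right end of I, which closes the same arm, was met by the same bins, but with a decline over them. As fold over the inter-chromosomal mean, their contact with it went from 6.54 in bin 3790001 to 3.28 in bin 3840001. In bin 3850001 it was 1.58. Divided by the within-arm contact of I at the same separation, the contact of the short-arm side with its own right end was 4.23 (3.91 to 4.57) within 50 kb and 2.16 (1.99 to 2.35) from 50 to 100 kb. From 100 to 200 kb it was 0.390 (0.338 to 0.447). The long-arm side of I met that end, on the opposite arm, at 2.61 (2.36 to 2.88) within 50 kb, 0.851 (0.754 to 0.959) from 50 to 100 kb and 0.400 (0.352 to 0.454) from 100 to 200 kb. The flanks of II met the left end of II, divided in the same way, at ratios closer to 1 than these within 50 kb, which were 1.17 (0.993 to 1.37) on the short-arm side and 1.57 (1.34 to 1.83) on the long-arm side. From 100 to 200 kb these were 0.732 and 0.766. The long-arm value of II within 50 kb holds bin 1620001 and was not computed without it.

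**Figure D4:**
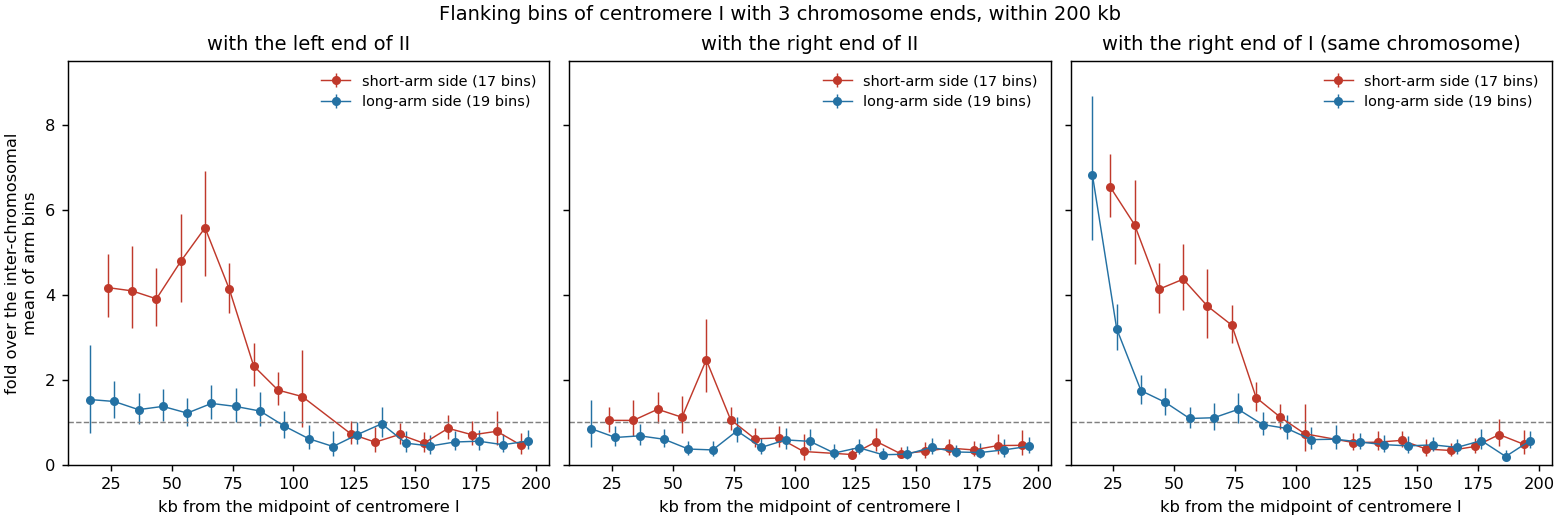
Contact of the flanking bins of centromere I within 200 kb of the midpoint with the left end of II, the right end of II and the right end of I, as fold over the inter-chromosomal mean of arm bins, against distance in kb. Points are bins and bars are 95% Poisson intervals; the short-arm side keeps a fold of 3.90 to 5.58 with the left end of II over its 6 innermost bins and then drops to 2.33, while the long-arm side stays at 1.53 or less.

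Within 50 kb of the midpoints of II and III, the right end of I was met more than the left end of I. Bins within 50 kb of III met it at 3.58 (3.20 to 4.001) on the short-arm side and 5.21 (4.47 to 6.05) on the long-arm side. Each of these values averages 2 bins, and 5.21 rests on 175 reads. The long-arm value holds bin 1130001, which shares 80.1% of its sequence with another chromosome. With the ends of I and II together that bin had a fold of 3.07, against 1.88 in bin 1140001. The long-arm value was not computed without it. Bins within 50 kb of II met the right end of I at 1.62 (1.41 to 1.86) on the short-arm side and 2.85 (2.52 to 3.21) on the long-arm side. From 50 to 100 kb these values were 1.21 and 1.78 on III and 0.900 and 0.997 on II. There the short-arm side of III met the left end of II at 1.46 (1.27 to 1.67), and its long-arm side met it at 1.29 (1.14 to 1.46). The left end of I was met at 0.839 and 1.01 by the innermost bins of III and at 0.630 and 0.854 by those of II. On the long-arm side of II, bin 1620001 had a fold of 5.80 with the right end of I, the highest value among the 4 bins averaged there. Without it the innermost bins of that side met the right end of I at 1.86 (1.62 to 2.13) and the left end at 0.671, and the intervals of the sides of II at the right end overlapped.

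**Figure D5:**
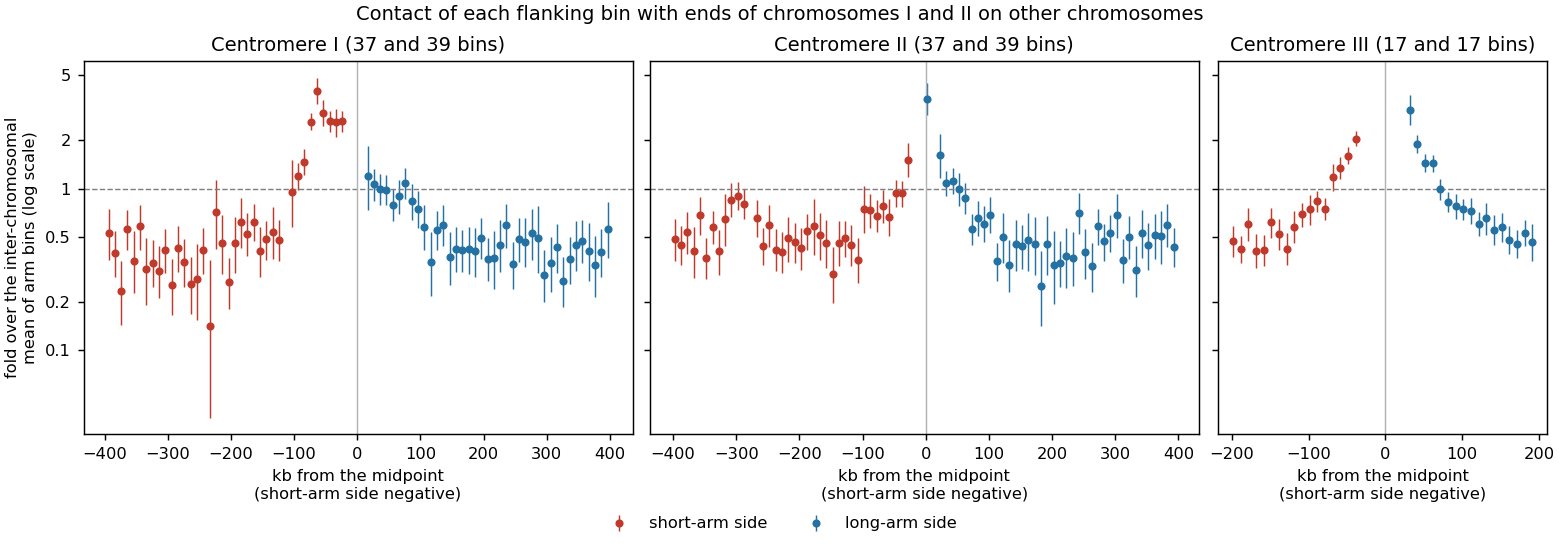
Contact of each flanking bin with the ends of I and II that lie on other chromosomes, as fold over the inter-chromosomal mean of arm bins on a log axis, against distance from the bin's own midpoint in kb, with the short-arm side negative. Points are bins, bars are 95% Poisson intervals and the dashed line is a fold of 1; 0 of the 138 bins beyond 100 kb reach 1, and the short-arm side of I holds a plateau of 2.57 to 4.02.

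The ends of III, which border the ribosomal DNA, followed another course. On I their contact with the flanks was lower near the midpoint than far from it. The short-arm side of I met the left end of III at 0.462 within 50 kb and at 0.644 (0.595 to 0.696) from 200 to 400 kb, and the long-arm side at 0.299 (0.229 to 0.384) and 0.682 (0.632 to 0.734). The short-arm side of II met it at 0.661 (0.544 to 0.796) within 50 kb and at 1.07 (1.01 to 1.14) from 200 to 400 kb, against 0.576 (0.522 without bin 1620001) and 0.694 on the long-arm side.

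Flanking bins were also compared with their neighbours. Each bin was set against the median of the other bins within 50 kb on its side, and ratios of 1.5 or more, or of its inverse or less, were counted. For contact with other centromeres 10 of 186 flanking bins were above (5.38%, where 2.88% of the 1217 bins with such a median were), and 1 was below (0.538%, where 2.71% were). For contact with ends 12 were above (6.45%, where 3.78% were), and 12 were below (6.45%, where 3.7% were). With a running median within 100 kb, 34 were above for centromeres and 28 for ends. The innermost bins lie at the edge of their own window on a steep slope, so a ratio above 1 follows there from the slope. Of the 10 bins above their neighbours in contact with centromeres, 9 lay within 50 kb of a midpoint, and the other, bin 1300001 of II with ldb1 and sqs1, lay 317 kb out with a ratio of 1.68 (1.33 to 2.103).

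Most of the farthest departures outside the innermost bins rested on few reads. Bin 4000001 of I, with yih1, met the ends at 0.333 (0.0909 to 0.854) of its neighbours, from 4 reads, and the bin before it, with the retrotransposon Tf2-5, at 1.86 (1.10 to 2.93) from 18 reads. Bin 4140001 of I, with mug56 and tif51, was at 0.446 (0.276 to 0.681) from 21 reads. Bin 1860001 of II, with elp6 and tam8, was at 1.81 (1.34 to 2.38) from 50 reads. The largest ratio, 3.28 (2.59 to 4.09), was that of bin 1620001 of II in contact with ends, from 78 reads.

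The flanks differed from the rest of the map in tRNA genes close to the midpoints. Of the 18 flanking bins within 50 kb, 8 held a tRNA gene (44.4%), as did 23 of all 186 flanking bins (12.4%) and 8.62% of the rest. These 8 bins held 28 tRNA genes, 9 of them in bin 1640001 of II, 7 in bin 1060001 of III and 6 in bin 1590001 of II. Blank bins within 50 kb held a further 6 at I, 10 at II and 12 at III. Bins with a tRNA gene had a median ratio to their neighbours of 1.09 in contact with other centromeres (16 of 23 above 1), against 0.999 in flanking bins without one (81 of 163 above 1). In contact with ends the medians were 1.002 and 1.01. Several of these bins are innermost bins, whose ratio also follows the slope, and the part of the tRNA genes was not tested.

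Other features were close to those of the rest. Flanking bins had 4.17 protein-coding genes per bin, against 4.12, and a median of 5 HindIII sites, as in the rest. The mean AT content was 63.6% in flanking bins and 63.9% in the rest, and 65.1% within 50 kb of a midpoint. LTRs of retrotransposons were found in 10.8% of flanking bins and 14.8% of the rest, and in 0 of the 18 bins within 50 kb.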

How the data were processed

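Hi-C signal was analysed for 1 map of 2 samples of the strain sap1-1. The authors deposited a signal for each pair of 10 kb bins, iteratively corrected and including the diagonal, per the file headers, and each bin with values has the same sum (57251.4 to 57251.5). Bowtie2 2.1.0 and ASM294v2 are named per the submitters' processing notes. The 3 chromosome lengths of the map equal those of the RefSeq reference from which sequence and genes were read.

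Since the correction scales whole reads by a factor per bin, factors and reads were recovered from the values. All values (100%) came within 0.05 of a whole number, giving 37526864 reads in all (99.9% of the 37571192 in the header), with a median of 11 per inter-chromosomal bin pair. Poisson intervals at 95% rest on these reads. Arm bins lay at least 200 kb from an end and 100 kb from a midpoint. End windows held the outermost 5 bins with values. Slopes were least-squares fits of log2 fold on distance. Recovery of reads, of a raised block, of raised bins and of the mean ratio across the centromere was tried on simulated data. The simulation used known bin factors and did not run the correction. Side ratios, pairing, slopes and intervals were not tried on it.

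The flanking bins, distance classes and lists were chosen with earlier results of these data known. Genes named were those nearest the middle (at most 2) of the 2 innermost bins with values on each side, 1 each at the limits, and those of up to 10 bins farthest from the running median. Genes of other bins, and bin 1300001 of II, were chosen with their values in view. Alternatives were other corrections, windows, ends, thresholds and matches, and leaving out bins with few reads or shared sequence. The tools were pandas 2.3.3, SciPy 1.17.1 and NumPy 2.4.6 under Python 3.11.15, with matplotlib 3.10.9 for plots.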

Additional observations from a re-analysis of the deposited data

How the results depend on the processing

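No paired analysis was possible because the 2 samples form 1 group and 1 map, and no result comes from a test. The 21 results gave 123 values under alternatives: 52 lay within the counting interval (for the slope, within the SD over sides; for counts, within 1.5 times), 67 moved beyond it and 4 turned. Intervals are narrow at this depth, so small shifts count as moved, and the causes were not tested. The side ratios for ends rest on 605 to 1418 reads a side and single bins on far fewer, so depth limits single bins most. Without replicates no value here has a biological error.

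In reads without the correction, contact with other centromeres was 13.0, 8.76 and 3.55 times the mean at 0 to 50, 50 to 100 and 100 to 200 kb. The short over long ratio turned to 0.848 on I and was 0.915 on II and 0.989 on III. Contact across the centromere turned to 0.692 on I and 0.709 on III and was 0.326 on II. The ratio for ends was 1.97 on I and 0.914 on III, the pairing of sides alike between I and III 1.07, and local contact 1.01. Of the bins 18 were above and 19 below their neighbours in contact with centromeres, and 21 above and 21 below in contact with ends.

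With the 5% of bins lowest in reads left out, contact with other centromeres was 20.3 at 0 to 50 kb and 4.59 at 100 to 200 kb. The short over long ratio was 1.04 on I and 0.935 on III, that for ends on I 2.26, contact across the centromere 1.17 on I and 0.678 on II, the pairing of I with II 0.978 and local contact 1.15. Balanced again without the diagonal, the 3 centromere classes were 25.5, 11.6 and 4.42, contact across II 0.544 and local contact 1.22.

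Centromere windows of 30 kb gave 25.7, 10.4 and 3.67 in the 3 classes, a slope of -1.94 per 100 kb, and side ratios of 0.664 on II and 0.891 on III. Windows of 100 kb gave 15.5, 9.44 and 4.51, a slope of -1.41, and side ratios of 1.03 on I and 0.911 on II, while III turned to 1.01. Without bins sharing sequence with another chromosome the classes were 18.0, 10.9 and 4.53 and the side ratios 0.788 on II and 0.936 on III. Medians over pairs gave 22.2 and 11.2 in the inner classes and side ratios of 0.740 on II and 0.978 on III.

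The outermost 2 end bins gave a ratio for ends of 1.08 on II. Without end bins sharing sequence with another chromosome it was 0.797 on II and 0.886 on III. An expectation from flanking pairs on 1 side gave 0.474 across II and 1.31 across III. Separations of 20 to 50 kb gave a local contact of 1.23. A threshold of 2 times left 3 bins above and 0 below their neighbours for centromeres, and 2 above and 2 below for ends. A running median within 100 kb gave 34 bins above for centromeres and 28 for ends.

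The last 2 settings were added after seeing the data. Without flanking bins holding repeated sequence, contact across the centromere was 1.20 on I and 0.674 on II. Without the bin of II with the fewest reads, the 3 centromere classes were 22.2, 11.2 and 4.39 and contact across II 0.630.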
